A study of Mus musculus with 9 samples.

Results

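Glutathione transferases of the mu and alpha classes are described here in the livers of female mice fed permethrin or clofibrate. The 10 genes are Gsta2, Gsta3 and Gsta4 of the alpha class and Gstm1 to Gstm7 of the mu class, chosen by symbol from the 18193 genes that had a probe set of their own on the array. Of 45101 probe sets, 16 were annotated to 1 of these genes alone. Where a gene had several, the probe set with the highest mean signal over the 9 arrays stood for it. All 10 genes and all 16 probe sets passed the filter on dim signals. The mice were of the outbred stock Crlj:CD1(ICR), aged 9 weeks at purchase and quarantined for 1 week. They received a powdered diet for 2 weeks with no added chemical (control), with 5000 ppm permethrin, a pyrethroid insecticide, or with 5000 ppm clofibrate, a lipid-lowering fibrate drug. Each group held 3 mice, with 1 Affymetrix array of total liver RNA per mouse. The values are linear MAS5 signals, and the level of one probe set cannot be set against that of another.

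Glutathione transferases are dimeric cytosolic enzymes that attach the tripeptide glutathione to electrophilic compounds, which makes them more soluble and marks them for export from the cell. The alpha class also reduces lipid hydroperoxides, and both classes are abundant in hepatocytes. In mouse liver many of these genes respond to chemicals through the transcription factor NRF2 and the nuclear receptor CAR, while fibrates act through the nuclear receptor PPAR alpha. The 7 mu genes lie side by side on chromosome 3 in the order Gstm5, Gstm7, Gstm6, Gstm3, Gstm2, Gstm1 and Gstm4, with no other protein-coding gene between them in RefSeq. Gsta4 and Gsta2 lie on chromosome 9 and Gsta3 on chromosome 1.

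RefSeq promoter windows (GRCm38.p6) matched 9 of the 10 genes by symbol, with 14 start sites in all. The 250 bases before each start site were searched on both strands for the core letters of the antioxidant response element, TGACNNNGC, at which NRF2 is known to act, for the nuclear receptor site AGGTCA, for the TATA box TATAAA and for the GC box GGGCGG. Printed first are the promoters of the 3 genes called higher with permethrin by the probe sets that stand for them. Gstm1, called higher by other probe sets as given below, is not printed. The promoters are given 5′ to 3′ on the gene's strand, with capitals at any match to these 4 motifs. For Gstm4, which has a pair of overlapping windows, the one that starts farther upstream is shown. The windows lie at chr9:78347146-78347395 (minus strand) for Gsta2, chr3:107969175-107969424 (minus strand) for Gstm3 and chr3:108044860-108045109 (minus strand) for Gstm4.
Gsta2: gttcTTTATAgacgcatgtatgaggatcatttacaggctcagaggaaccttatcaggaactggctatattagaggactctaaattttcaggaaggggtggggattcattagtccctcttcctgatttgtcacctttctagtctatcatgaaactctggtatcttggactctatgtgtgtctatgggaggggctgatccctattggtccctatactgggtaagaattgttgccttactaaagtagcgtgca
Gstm3: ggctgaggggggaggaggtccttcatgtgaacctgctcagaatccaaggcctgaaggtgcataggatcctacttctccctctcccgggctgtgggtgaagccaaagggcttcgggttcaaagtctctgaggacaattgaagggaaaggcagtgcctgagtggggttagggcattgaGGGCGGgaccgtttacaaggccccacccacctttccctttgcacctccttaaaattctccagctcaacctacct
Gstm4: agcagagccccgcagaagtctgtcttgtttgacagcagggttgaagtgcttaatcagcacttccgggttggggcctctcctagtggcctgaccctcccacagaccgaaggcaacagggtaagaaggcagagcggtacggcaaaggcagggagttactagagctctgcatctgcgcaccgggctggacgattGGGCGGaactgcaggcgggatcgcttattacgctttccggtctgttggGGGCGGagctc

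The antioxidant response element core was found in the windows of 3 genes, Gsta3, Gstm5 and Gstm7. In the main fit none of these genes passed the test in any comparison by the probe set that stands for it. Each stretch is printed with the match in capitals and 10 bases on either side. They lie at chr1:21240454-21240482 (plus strand), chr3:107895802-107895830 (plus strand) and chr3:107931725-107931753 (minus strand).
Gsta3: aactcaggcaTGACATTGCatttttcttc
Gstm5: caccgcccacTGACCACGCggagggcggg
Gstm7: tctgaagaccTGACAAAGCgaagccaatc
The matches begin 121, 42 and 129 bases before the start site, and for Gstm7 the match is in 1 of its 2 windows. These are 3 of the 9 genes, against 11.5% of all genes with a window, and 3 of the 14 windows, against 10.2% of all 32851 RefSeq windows of the same length. The site AGGTCA was in 0 of the 14 windows, against 14% of all windows, the TATA box in 3 against 12.4% and the GC box in 5 against 32.7%. Among the promoters printed, Gsta2 holds 1 TATA box letter match, on the opposite strand and far from the start site, Gstm3 holds 1 GC box and Gstm4 holds 2. Sequence outside the windows was not searched, so a gene without a match in its window may hold the motif elsewhere. Whether any of these motifs acts on its gene in these livers was not tested.

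Median signals per array lay between 13.4 and 17.9, and every array had been scaled to the same trimmed mean of 100.001. Of 10 hepatocyte markers, 9 had a probe set of their own and all 9 passed the filter. Their summed signal was 79040 to 87699 in control mice, 72393 to 77400 in permethrin-fed mice and 57545 to 69950 in clofibrate-fed mice, and 4 of the 9 were called lower with clofibrate against 0 with permethrin. Markers of bile duct cells summed to at most 107 in any array (Cftr, Cldn7 and Krt7 were below the filter), and of lymphocytes to 52.5 to 78.4 in control mice, 52.4 to 64.4 in permethrin-fed mice and 79.5 to 106 in clofibrate-fed mice (Cd3e, Cd3g, Cd4 and Cd79a were below it). The clofibrate mice thus lay above all controls in the lymphocyte sum. Kupffer cell markers summed to 2453 to 5158 over all 9 arrays, with 0 markers of these 3 cell types called in either treated group. The pancreas markers summed to 1177 to 1469 in controls and to 196 to 324 in treated mice, with 1 gene called lower in each treated group. Endothelial markers summed to 2874 to 3283 in control mice, 2616 to 2962 in permethrin-fed mice and 2147 to 2292 in clofibrate-fed mice, with 1 called lower with clofibrate, and stellate cell markers to 3517 to 4577, 2954 to 3274 and 2617 to 3424 in the same order, below all controls in every treated mouse, with 0 called. Skeletal muscle markers summed to at most 76.2 and erythroid markers to at most 411, with 0 called. The part of these differences in the results below was not tested, and in bulk liver fewer cells of a type and less RNA per cell cannot be told apart. Spiked hybridization controls averaged, in log2 signal, 10.12 ± 0.16 in control mice, 9.97 ± 0.18 in permethrin-fed mice and 9.78 ± 0.12 in clofibrate-fed mice (SD, n = 3). Scaling to them moved the median log2 change of all genes from -0.04 to 0.09 for permethrin and from -0.04 to 0.27 for clofibrate against control. Under it the log2 change of Gsta3 with permethrin turned from -0.10 to 0.05 and that of Gstm7 from -0.12 to 0.02, and with clofibrate Gsta3 turned from -0.31 to 0.03, Gstm3 from -0.01 to 0.32 and Gstm5 from -0.21 to 0.12, none of them past the threshold.

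Within the clofibrate group, replicate 3 had the lowest signal of 9 of the 10 members.

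The comparison of permethrin with control asks how the family stood after the insecticide. No member was called lower with permethrin. By the probe sets that stand for them, Gsta2, Gstm3 and Gstm4 rose by 2.47-fold, 3.61-fold and 2.23-fold. These 3 of 10 members called higher stand beside 1.28% of the 12466 genes tested called higher, and 2.13% called in either direction (limma, adjusted p under 0.05, two-sided). Log2 changes and folds are on the scale log2(signal + 3.35), which understates the change of dim probe sets. The treated and control mice did not overlap for 5 members, all higher with permethrin, where 22.7% of all genes did not overlap and 9.53% did so on the higher side. The median log2 change was 0.33 over the members and -0.04 over all genes.

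Gstm3, a mu class enzyme often read as an NRF2 target, had the widest gap. Its signal was 1429, 1371 and 2634 in control mice, 6212, 6529 and 6005 in permethrin-fed mice and 1967, 1754 and 1459.8 in clofibrate-fed mice. Every permethrin mouse lay above every other mouse, control mouse 3 stood apart from the other two controls, and the clofibrate mice lay within the control range. The log2 change with permethrin was 1.85 ± 0.21 (SE; limma adjusted p = 0.0013), and 2.16 without control replicate 3. With clofibrate it was -0.01 ± 0.21 (limma adjusted p = 0.983), with a 95% interval of -0.48 to 0.45. Permethrin exceeded clofibrate by 1.86 ± 0.21 on the log2 scale (SE; limma adjusted p = 0.00345).

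Gsta2 is an alpha class enzyme. Its signal was 2129, 1311 and 1498 in control mice, 3805, 4697 and 3555 in permethrin-fed mice and 1486, 1579.9 and 1919 in clofibrate-fed mice. The permethrin mice were again apart from all others, and the control and clofibrate mice overlapped. The group means were 1646 ± 429, 4019 ± 601 and 1662 ± 228 (SD, n = 3). The log2 change was 1.31 ± 0.18 with permethrin (SE; limma adjusted p = 0.00399) and 0.04 ± 0.18 with clofibrate (limma adjusted p = 0.943; 95% interval -0.35 to 0.42). The difference between the treatments was 1.27 ± 0.18 (SE; limma adjusted p = 0.00999).

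Gstm4 was the member called higher with both chemicals. Its signal was 537, 652 and 738 in control mice, 1522, 1331 and 1427 in permethrin-fed mice and 1249, 1235 and 1193 in clofibrate-fed mice. All treated mice lay above all controls, and the permethrin mice lay above the clofibrate mice by a small margin. The log2 change was 1.16 ± 0.12 with permethrin (SE; limma adjusted p = 0.000763) and 0.94 ± 0.12 with clofibrate, a 1.92-fold rise (limma adjusted p = 0.00111). The difference between the treatments was 0.22 ± 0.12 (limma adjusted p = 0.524), with a 95% interval of -0.05 to 0.48, which does not show that the rises were alike.

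**Figure D1:**
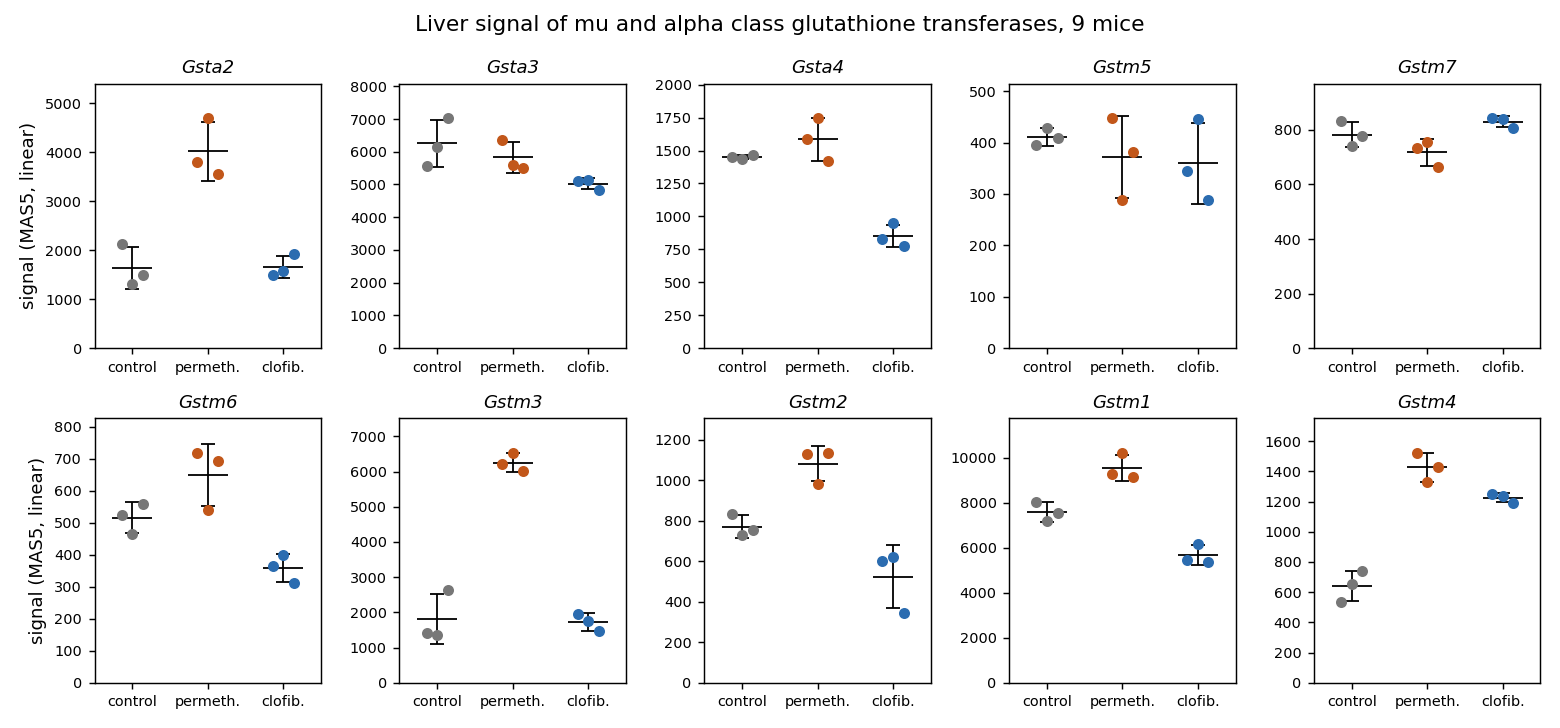
Liver signal (MAS5, linear, from 0) of the 10 genes in control, permethrin and clofibrate mice, with 1 point per mouse, a horizontal bar at the mean and whiskers of 1 SD (n = 3). The permethrin points of Gstm3 lie between 6005 and 6529, above all other mice, and those of Gsta4 and Gstm1 with clofibrate lie below all controls.

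Gstm1 is a mu enzyme abundant in mouse liver. Its signal was 8046, 7186 and 7567 in control mice, 9301, 10218 and 9126 in permethrin-fed mice and 5479, 6181 and 5359 in clofibrate-fed mice. The 3 groups did not overlap, with permethrin at the top and clofibrate at the bottom. With permethrin the log2 change was 0.33 ± 0.09 (SE), which did not pass the test (limma adjusted p = 0.105). With clofibrate Gstm1 fell by 0.42 on the log2 scale (SE 0.09; limma adjusted p = 0.0181). That call was lost under 11 of 22 alternatives, over which the limma adjusted p ranged from 0.00374 to 0.843. It was lost without control replicate 1 (limma adjusted p = 0.0897), control replicate 3 (0.0616) or clofibrate replicate 3 (0.0893), with no filter (0.0858) and without the intensity trend (0.126). Quantile normalization gave -0.20 (limma adjusted p = 0.143), cyclic loess -0.26 (0.0702) and arrays centred on their median -0.34 (0.281). Scaled to the hybridization controls, the log2 change of Gstm1 was -0.09 (limma adjusted p = 0.696), or -0.36 relative to the median gene. Permethrin exceeded clofibrate by 0.75 ± 0.09 (SE; limma adjusted p = 0.00433).

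Gsta4, an alpha enzyme specialised in conjugating hydroxynonenal and related products of lipid peroxidation, fell with clofibrate. Its signal was 1451, 1432 and 1468 in control mice, 1586, 1746 and 1422 in permethrin-fed mice and 827, 947 and 779 in clofibrate-fed mice. The clofibrate mice lay below all others, and control and permethrin mice overlapped. The log2 change with clofibrate was -0.77 ± 0.11 (SE; limma adjusted p = 0.0021), a 1.71-fold fall. With permethrin it was 0.12 ± 0.11 (limma adjusted p = 0.682; 95% interval -0.12 to 0.37). Under scaling to the hybridization controls the clofibrate value was -0.44 (-0.71 against the median gene), which did not pass (limma adjusted p = 0.0864). The hepatocyte marker sum was below all controls with clofibrate and also with permethrin, as given above. Its part in the fall of Gsta4 was not tested.

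Gstm2 and Gstm6 are neighbours of Gstm1 and Gstm3 in the mu cluster. They were apart between the treatments but passed no test against control in the main fit. Gstm2 had signals of 833, 728 and 754 in control mice, 1129, 982 and 1135 in permethrin-fed mice and 604, 622 and 344 in clofibrate-fed mice. Gstm6 had signals of 525, 464 and 559 in control mice, 718, 539 and 693 in permethrin-fed mice and 365, 399 and 313 in clofibrate-fed mice. For both genes the clofibrate mice lay below all controls, and for Gstm2 the permethrin mice lay above them, while permethrin mouse 2 lay within the control range for Gstm6. The log2 change of Gstm2 was 0.48 ± 0.20 with permethrin and -0.60 ± 0.20 with clofibrate (SE; limma adjusted p = 0.293 and 0.108). That of Gstm6 was 0.32 ± 0.14 and -0.52 ± 0.14 (SE; limma adjusted p = 0.355 and 0.0618). Under 1 of 19 alternatives each, Gstm2 and Gstm6 were called lower with clofibrate (limma adjusted p = 0.0171 and 0.0138).

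Gsta3, Gstm5 and Gstm7 passed no test in any comparison by the probe sets that stand for them in the main fit. Gsta3, an alpha enzyme known in mice for conjugating the aflatoxin epoxide, had signals of 5575, 6159.5 and 7028 in control mice, 6358, 5608 and 5511 in permethrin-fed mice and 5101, 5139 and 4834 in clofibrate-fed mice. Its clofibrate mice lay below all other mice, with a log2 change of -0.31 ± 0.10 against control (SE; limma adjusted p = 0.11). That fall was called under 2 of 20 alternatives, 1 of them the other probe set given below (lowest limma adjusted p = 0.0372). Gstm5 ranged from 395 to 429 in controls, from 288 to 448 with permethrin and from 289 to 445 with clofibrate, so the groups overlapped and the treated mice were the more scattered. Gstm7 ranged from 739 to 833, from 663 to 757 and from 809 to 843 in the same order. The 95% intervals of the log2 change with permethrin were -0.57 to 0.24 for Gstm5 and -0.35 to 0.10 for Gstm7. Changes within these bounds were not excluded.

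Against control, clofibrate left the family with 1 member higher, Gstm4, and 2 lower, Gsta4 and Gstm1. With quantile, loess or median scaling, with no filter or without the intensity trend, 1 member was called lower, as the Gstm1 call was lost, and scaled to the hybridization controls 0 were. In this comparison 7.03% of all genes were called, 3.22% higher and 3.8% lower. The groups did not overlap for 6 members, 1 higher and 5 lower, against 27.2% of all genes, 11.6% higher and 15.6% lower. The median log2 change was -0.26 over the members and -0.04 over all genes. The permethrin and clofibrate comparisons share their control mice.

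The difference between permethrin and clofibrate takes no control mean, though the control mice enter the estimate of the spread in its test. Since both responses start from the same controls, it tests how far they differ. Here 6 of the 10 members were called higher with permethrin and 0 lower, where 0.738% of all genes were called, 0.473% higher. The members are Gstm3, Gsta2, Gstm2, Gsta4, Gstm6 and Gstm1, from 3.64-fold for Gstm3 to 1.68-fold for Gstm1. The groups did not overlap for 9 of 10 members, 8 higher and 1 lower, against 18.1% of all genes, 9.08% higher and 9.02% lower. The median log2 difference was 0.80 over the members and -0.01 over all genes. Gstm2 differed by 1.09 ± 0.20 and Gstm6 by 0.85 ± 0.14 (SE; limma adjusted p = 0.0338 and 0.0284). The call for Gstm2 was lost without any 1 of the permethrin replicates or clofibrate replicate 3, and that for Gstm6 without permethrin replicate 1 or 3 or clofibrate replicate 1 or 3. Both were also lost with the 6 arrays compared alone. With arrays centred on their median Gsta2, Gsta4 and Gstm3 were called, and Gstm1 was not (limma adjusted p = 0.0606). Scaled to the hybridization controls Gsta2 and Gstm3 were called, and Gstm1 (limma adjusted p = 0.0749) and Gsta4 (0.0676) were not. Without the intensity trend Gstm3 alone was called, with a limma adjusted p of 0.0853 for Gsta2.

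**Figure D2:**
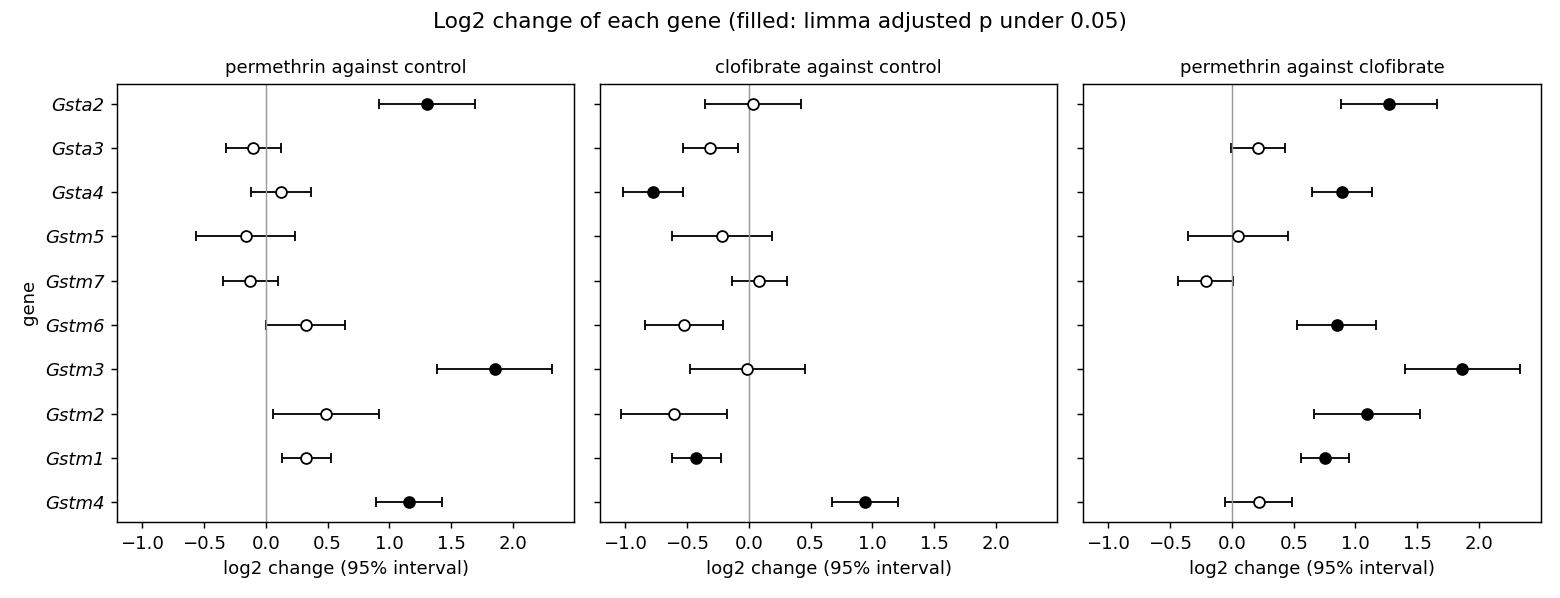
Log2 change of each gene with its 95% interval in the 3 comparisons, alpha genes first and mu genes in their order on chromosome 3. Filled points passed limma at an adjusted p of 0.05. The filled points lie at 1.16 to 1.85 for permethrin against control, on both sides of 0 for clofibrate against control, and at 0.75 to 1.86 for permethrin against clofibrate.

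By the probe sets that stand for the genes, the changes along the mu cluster were not graded. With permethrin the called genes Gstm3 and Gstm4 are separated by Gstm2 and Gstm1. Gstm5 and Gstm7 at the cluster's end had log2 changes of -0.16 and -0.12. Gstm1 was uncalled with permethrin only by its brightest probe set, and its other probe sets were called higher, at 0.50, 1.40 and 1.17. The mean signal of the brightest was 7607, against 7539 for the one at 0.50. With clofibrate Gstm4 rose by 0.94 beside Gstm1, its neighbour, which fell by 0.42 on the log2 scale. The Gstm4 call held under every alternative. That of Gstm1 was lost under 11 of 22, over which its log2 change ranged from -0.49 to -0.09.

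Of the 10 genes, 4 had several probe sets, and these differed in the size of the change. The second Gstm3 probe set read 259.6, 239 and 461 in control mice, 2606, 2022 and 2246 in permethrin-fed mice and 404, 359 and 316 in clofibrate-fed mice. That is a 7.38-fold rise with permethrin, or 2.88 ± 0.22 on the log2 scale (SE; limma adjusted p = 5.92e-05), against 3.61-fold by the probe set that stands for the gene. For Gstm1 the 4 probe sets gave log2 changes with permethrin of 0.33 and 0.50 where the signal was high and of 1.40 and 1.17 where it was lower, and 3 of the 4 passed limma (adjusted p = 0.00995, 0.0048 and 0.0465). The last of these had signals of 206 to 326 in control mice, 491 to 681 in permethrin-fed mice and 150.0 to 295 in clofibrate-fed mice. The Gstm1 fall with clofibrate was called for both bright probe sets, at -0.42 and -0.38, and not for the other 2, at -0.35 and -0.13.

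The second Gsta3 probe set read 2636, 2644 and 2735 in control mice, 3192, 3462 and 2770.4 in permethrin-fed mice and 2208, 1860.3 and 1520.3 in clofibrate-fed mice. It was called lower with clofibrate, by 0.54 ± 0.13 (SE; limma adjusted p = 0.0404), and higher with permethrin than with clofibrate, by 0.76 ± 0.13 (SE; limma adjusted p = 0.0319), neither of which was called for the brighter Gsta3 probe set. Over all 16 probe sets, 7 were called higher and 0 lower with permethrin, where 1.01% of the 24546 probe sets tested were called higher and 0.599% lower. With clofibrate 1 was called higher and 4 lower, against 2.84% and 2.8%, and between the treatments 10 were higher with permethrin and 0 lower, against 0.33% and 0.224%. The mu genes are close in sequence, and the suffixes _s_at and _x_at mark probes that can also bind related transcripts, so part of a signal may come from a relative. The probe sets that stand for Gstm1 and Gstm3 are of these kinds, as is the Gstm1 probe set with a change of 1.40. The Gstm1 probe sets with changes of 0.50 and 1.17 and the second one of Gstm3, all called higher with permethrin, are not. Gsta2 was read by 1 probe set, and its relative Gsta1 was not tested. The array also held 1 probe set annotated to a member and other genes, which was not used. What share of a signal came from relatives, in the mu or the alpha class, was not tested.

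**Figure D3:**
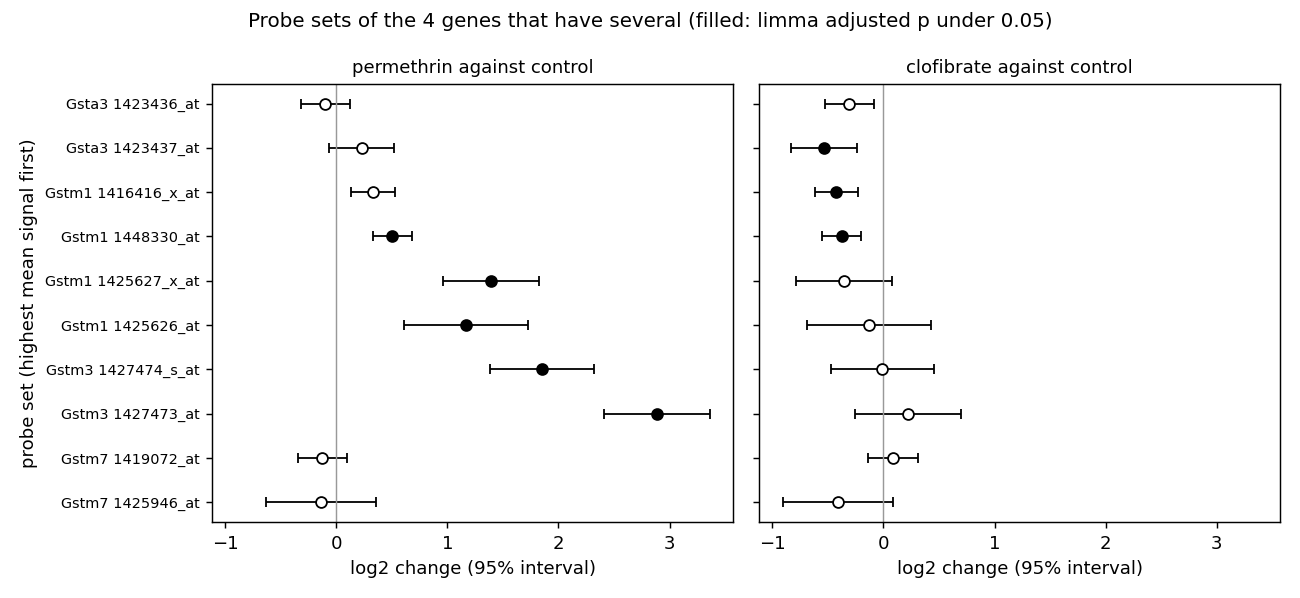
Log2 change with its 95% interval for the 10 probe sets of Gsta3, Gstm1, Gstm3 and Gstm7, for permethrin and for clofibrate against control, brightest probe set first within a gene. With permethrin the Gstm1 probe sets run from 0.33 to 1.40 and those of Gstm3 from 1.85 to 2.88.

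Of 20 other transferase genes listed, mostly of other classes, 11 were tested. Gsta1, Gsta5 and Gsta13 were on the list but not among those tested. Of these, 1 rose with permethrin and 1 with clofibrate, with 0 lower in either case and median log2 changes of -0.04 and -0.21. Both times it was Gstt2, a theta class enzyme, with 821 ± 97.0 in control mice, 1345 ± 153 in permethrin-fed mice and 2130 ± 401 in clofibrate-fed mice (SD, n = 3; limma adjusted p = 0.0437 and 0.000457). Gstp1, the pi class enzyme, had 7535 ± 84.4, 8790.5 ± 336 and 6506 ± 372 in the same order (SD, n = 3). It was called between the treatments and not against control, 0.43 ± 0.08 higher with permethrin (SE; limma adjusted p = 0.0334). Beside the called counts of this list and those below, 1.28% of all genes were called higher and 0.85% lower with permethrin. With clofibrate the shares were 3.22% and 3.8%, and for permethrin against clofibrate 0.473% and 0.265%.

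Of 19 tested genes of glutathione synthesis and recycling, 1 rose and 1 fell with permethrin, with a median log2 change of 0.16. Me1, malic enzyme, which makes NADPH, rose 3.14-fold, from 1022 ± 186 to 3214 ± 586, and Cbs, which starts cysteine synthesis from homocysteine, fell 1.64-fold, from 2751 ± 392 to 1666 ± 103 (SD, n = 3; limma adjusted p = 0.000611 and 0.015). Gclc, the catalytic subunit of the rate-limiting ligase, had a log2 change of 0.47 ± 0.21 with permethrin and -0.32 ± 0.21 with clofibrate, and Gclm, its modifier subunit, of 0.16 ± 0.15 and -0.21 ± 0.15, none past the threshold (limma adjusted p = 0.364, 0.464, 0.701 and 0.499). With clofibrate 3 genes rose and 4 fell, with a median of -0.03. Me1 rose 3.52-fold, Ggct, which cleaves glutamyl amino acids, 2.57-fold and Oplah, which returns oxoproline to glutamate, 2.35-fold, while Cth, which makes cysteine, fell 1.89-fold (limma adjusted p = 0.000158, 0.0206, 0.00111 and 0.0173). Cbs was called lower with clofibrate as well, 1.61-fold, at 1699 ± 178 (SD, n = 3, limma adjusted p = 0.00753). For permethrin against clofibrate 0 of the 19 were called by limma, and 0 of 15 genes of the next list.

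Genes that process or export glutathione conjugates went both ways. Of 15 tested, 2 rose and 2 fell with permethrin (median 0.06), and 2 rose and 3 fell with clofibrate (median -0.19). Abcc4, an export pump for organic anions, went from 38.0 ± 8.89 in control mice to 318 ± 43.1 in permethrin-fed mice and 198 ± 80.9 in clofibrate-fed mice (SD, n = 3; limma adjusted p = 0.000174 and 0.000567). Abcg2, a further export pump, rose 2.21-fold and 2.30-fold (limma adjusted p = 0.00256 and 0.000743). Acy1, the aminoacylase that removes acetyl groups from mercapturic acids, fell 1.96-fold and 2.03-fold (limma adjusted p = 0.0416 and 0.0147), and Nat8f1 of the N-acetyltransferase 8 family fell 2.16-fold and 3.25-fold (limma adjusted p = 0.0121 and 0.00036).

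Markers of the pathways that are known to act on these genes were read beside them. Abcc4, Gclc, Gclm and Gsr are on the NRF2 list and also on a list above, so the lists are not independent. Of 19 NRF2 markers and regulators tested, the carbonyl reductase Cbr3 had a control mean below 15.6, the limit of the filter, and so passed it through the treated mice. Of the other 18, 6 rose and 0 fell with permethrin (median 0.39), 5 rose and 0 fell with clofibrate (median 0.36), and 1, Aox1, was higher with permethrin than with clofibrate. Ephx1, the microsomal epoxide hydrolase, rose 2.43-fold and 1.83-fold (limma adjusted p = 5.92e-05 and 0.000452). Ugdh, which makes UDP-glucuronate, rose 2.40-fold and 1.74-fold (limma adjusted p = 0.00035 and 0.00293). Aox1, an aldehyde oxidase, rose 2.98-fold and 1.57-fold (limma adjusted p = 0.000474 and 0.0343). Cbr3 had a signal of 13.6 ± 5.30 in control mice, 128.9 ± 14.2 in permethrin-fed mice and 31.6 ± 2.09 in clofibrate-fed mice (SD, n = 3), and was called higher in both treated groups and with permethrin over clofibrate. Nqo1, a quinone reductase used as an NRF2 marker, had 91.9 ± 12.1 in control mice, 139 ± 8.83 in permethrin-fed mice and 93.4 ± 7.10 in clofibrate-fed mice (SD, n = 3), with limma adjusted p = 0.0757 and 0.944 against control.

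Cyp2b10, the cytochrome P450 read as a CAR marker, was 836 ± 234 in control mice, 3985 ± 309 in permethrin-fed mice and 342 ± 53.4 in clofibrate-fed mice (SD, n = 3), higher with permethrin and lower with clofibrate (limma adjusted p = 8.44e-05 and 0.00213). Acot1, the thioesterase read as a PPAR alpha marker, rose 8.44-fold with permethrin and 17.1-fold with clofibrate, and was 2.03-fold lower with permethrin than with clofibrate (limma adjusted p = 2.56e-06, 1.26e-07 and 0.00869). Vnn1 and Cd36, both used as PPAR alpha markers, rose 11.3-fold and 12.5-fold with permethrin and 23.2-fold and 22.5-fold with clofibrate (limma adjusted p = 8.18e-06, 2.56e-06, 4.83e-07 and 2.55e-07). Pex11a, a peroxisome division factor, rose 4.20-fold and 5.59-fold (limma adjusted p = 0.00101 and 0.000146). Cyp2c55, a cytochrome P450 read as a CAR marker, had 51.2 ± 9.34 in control mice, 217 ± 88.6 in permethrin-fed mice and 25.3 ± 4.14 in clofibrate-fed mice (SD, n = 3). It rose 3.87-fold with permethrin (limma adjusted p = 0.00422), was 7.34-fold higher than with clofibrate (0.00093), and did not pass for clofibrate against control (0.0743). Over the 13 tested CAR and PPAR alpha markers, 8 rose and 0 fell with permethrin, and 7 rose and 1 fell with clofibrate. This count pools the markers of both receptors. With clofibrate Acot1, Vnn1, Cd36, Pex11a, Ehhadh, Pdk4 and Fgf21 rose and Cyp2b10 fell. Cyp2b9, also on the list, was called with neither chemical, with log2 changes of 0.04 ± 0.16 with permethrin and 0.30 ± 0.16 with clofibrate (SE, limma adjusted p = 0.949 and 0.36).

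**Figure D4:**
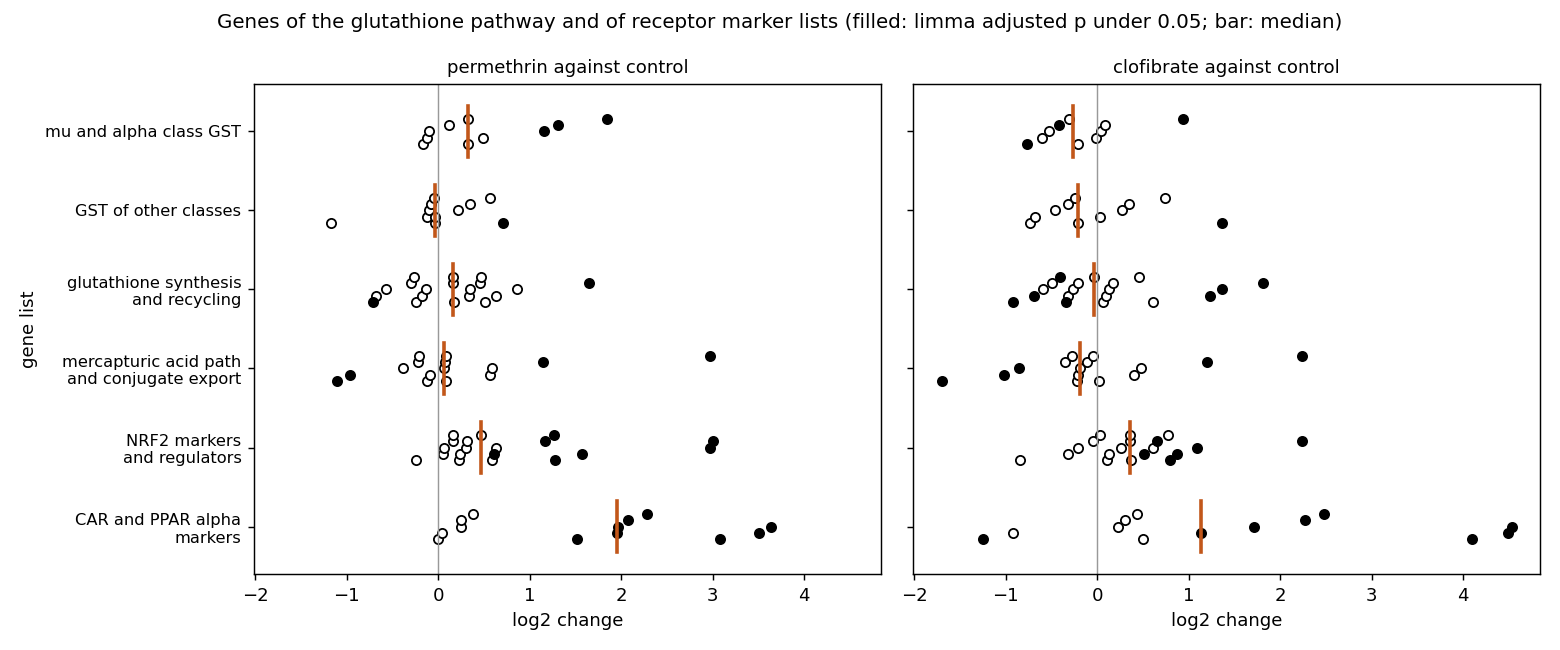
Log2 change of each tested gene of the family, of 3 glutathione pathway lists and of 2 marker lists, for permethrin and for clofibrate against control. Points are genes, filled where limma's adjusted p was under 0.05, and bars are medians. The family's median lies at 0.33 with permethrin and at -0.26 with clofibrate.

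The genes outside the family whose log2 signal followed a member most closely over the 9 arrays were sought for Gsta2, Gstm1 and Gstm3, with Pearson's r as a description, since the arrays share 3 groups. For Gsta2 they were Tmem106b, Psmd11 and Clip1, with r of 0.976, 0.963 and 0.956. For Gstm1 they were 1700023D09Rik, Gstp1 and Zcrb1, with r of 0.983, 0.969 and 0.967. For Gstm3 they were Atg13, Bet1 and Ubap1, with r of 0.961, 0.954 and 0.944. A high r does not mean a change of like size. For the Gsta2 matches the log2 change with permethrin was 0.22, 0.29 and 0.27, none called, against 1.31 for Gsta2. 1700023D09Rik was dim, with means of 21.2 in control, 27.0 in permethrin-fed and 15.8 in clofibrate-fed mice, and was called in no comparison. Of all these matches Bet1 alone was called with permethrin against control, at 0.82 (limma adjusted p = 0.0093).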

How the data were processed

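Total liver RNA of 9 mice, 3 in each group, was hybridized to 1 Affymetrix array per mouse. The deposited intensity values are linear probe set signals made by the authors with MAS5, per the submitters' processing notes; its version and settings were not given in the sources used here. In the values every array has the same trimmed mean (2% removed at each end). The description field of treated samples speaks of rats, while organism, strain and source name say mouse.

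From these signals log2(signal + 3.35) was computed, the offset being the 20th percentile. Probe sets above 15.6, the median signal, in at least 3 arrays were kept (24546). They were fitted with limma 3.58.1 in R 4.3.3 over all 9 arrays, with an intensity trend and Benjamini-Hochberg adjustment at 0.05, two-sided. The procedure was tested on simulated data. Genes come from the platform annotation, by probe sets of 1 gene: 34945 probe sets had 1 gene, 932 several and 9160 none. Promoter sequences are from RefSeq (GRCm38.p6), matched by symbol, and Gsta4 was not matched.

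All members are named, and from each list up to 4 called genes per comparison with the largest change, with Nqo1, Cyp2b10 and Acot1 as fixed markers; Gclc and Gclm were added, and the NRF2 list counted without Cbr3, after their values were seen. The members and lists were chosen with earlier results of these data known. Alternatives covered scaling, offset, filter, variance model, array weights, probe set, replicate block and leaving out each mouse. The number of arrays limits the precision.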

Additional observations from a re-analysis of the deposited data

How the results depend on the processing

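The calls of Gsta2, Gstm3 and Gstm4 with permethrin, and of Gstm4 with clofibrate, held under every alternative run. Over 588 values of single members under alternatives, 519 kept direction and side of the threshold, 37 lost the call, 10 gained it and 22 turned direction. The causes were not tested. Genes called numbered 266 for permethrin and 876 for clofibrate, each against control, and 92 between the treatments, the order kept here. They numbered 143, 487 and 33 with arrays centred on their median, and 80, 397 and 10 without the intensity trend. Scaled to the hybridization controls they numbered 166, 1103 and 43, split into 144 higher and 22 lower, 1015 and 88, and 9 and 34, against 160 and 106, 402 and 474, and 59 and 33 before; centred arrays gave 117 and 26, 305 and 182, and 26 and 7. Array weights gave 1496 genes for clofibrate against control and 226 for permethrin against clofibrate, and the 6 arrays compared alone gave 48 for the latter. Leaving out 1 mouse gave 108 to 189, 430 to 828 and 17 to 119 genes, and 3 to 3, 2 to 3 and 4 to 6 members. Members called for permethrin against clofibrate were 3 with centred arrays, 2 with hybridization scaling and 1 without the trend; for clofibrate against control they were 1 with hybridization scaling, 6 with array weights, and 2, without Gstm1, with quantile, loess or median scaling, no filter or no trend. Same-numbered mice did not deviate together (r from -0.11 to 0.11), so the numbers were not taken as pairs; with the replicate block 205, 726 and 63 genes and 3, 3 and 4 members were called. Among uncalled members, the log2 change with permethrin turned to 0.0076 (centred), 0.049 (hybridization scaling) and 0.23 (other probe set) for Gsta3, to 0.023 for Gstm7 with hybridization scaling, and ranged from -0.31 to 0.0089 for Gstm5 over left-out mice. With clofibrate Gstm3 turned to 0.030 (quantile), 0.086 (loess), 0.073 (centred), 0.32 (hybridization scaling) and 0.22 (other probe set), ranging from -0.18 to 0.29 over left-out mice; Gsta2 ranged from -0.11 to 0.24, Gsta3 turned to 0.026 and Gstm5 to 0.12 with hybridization scaling, and Gstm7 to -0.41 with its other probe set. Between treatments Gstm5 turned to -0.13 with hybridization scaling and ranged from -0.094 to 0.22, and Gstm7 turned to 0.27 with its other probe set.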
